A study of Macaca mulatta with 24 samples.

Results

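The 4 aminotransferase genes described here are *GPT* (ENSMMUG00000015585), *GPT2* (ENSMMUG00000003288), *GOT1* (ENSMMUG00000010356) and *GOT2* (ENSMMUG00000006000). They were chosen by symbol from a table of 32386 genes, and each symbol matched 1 gene identifier. *GPT* entered the choice because its differences from the controls were already known, so its differences between groups are given as a description, without a test. The members as a group and the gene and marker lists used below were also chosen with earlier results of these data known. Their p values and shares are to be read with that limit. All 4 genes passed the filter on low counts, among 15207 genes tested.

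The RNA-seq libraries came from biopsies of omental white adipose tissue (WAT), a visceral fat depot, of 24 adult female rhesus macaques, with 6 animals and 6 libraries in each group. Controls (*C*) carried cholesterol implants and ate monkey chow, and the *T* group carried testosterone implants on the same chow. The *WSD* group ate a high-fat Western-style diet (WSD), also with the control implants, and the *T* + *WSD* group received testosterone and the diet together. Treatment lasted 3 years in every group. The labels give an age of 4 years, whereas the paper's methods state an older, post-pubertal age at biopsy. Total RNA was taken from whole tissue, so that fewer cells of a type and less RNA per cell cannot be told apart in any result that follows.

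Aminotransferases move an amino group between an amino acid and a keto acid, with a form of vitamin B6 as the cofactor. Alanine aminotransferase converts alanine and α-ketoglutarate into pyruvate and glutamate, and has a cytosolic form encoded by *GPT* and a mitochondrial form encoded by *GPT2*. Aspartate aminotransferase, cytosolic from *GOT1* and mitochondrial from *GOT2*, converts aspartate into oxaloacetate and belongs to the malate-aspartate shuttle, which carries reducing equivalents into mitochondria. In fat these enzymes link pyruvate, glutamate and the carbon that feeds fatty acid and glycerol synthesis.

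Total counts per library ran from 6899185 to 28270776. In 8 libraries, 2 in each group (*C* replicates 1 and 2, *T* 13 and 14, *WSD* 19 and 20, *T* + *WSD* 7 and 8), the gene ENSMMUG00000038258 took 9.92% to 54.7% of the counts, against 0.879% to 2.51% in the other 16 libraries. The tissue label was checked against adipocyte markers: *ADIPOQ*, the adiponectin gene, lay between 381 and 2124 counts per 1e6 library counts (CPM), and *PLIN1*, a coat protein of the fat droplet, between 315 and 2812 CPM. *C* replicate 1 stood apart. It held the lowest *PLIN1* and the lowest leptin (*LEP*, 4.39 CPM), a mean z score of the adipocyte markers of -3.36, and the highest score of the mesothelial markers (1.16) of all libraries. The differences of *GPT*, *GPT2* and *GOT1* from *C* are therefore also given without it. So is the ratio of *GOT1* to *GOT2* counts in *T* and *T* + *WSD* against *C*. For the pathway genes only the number that passed is given without it.

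*GPT*, the cytosolic alanine aminotransferase, was the member with the lowest read support, with 477 counts over all 24 libraries. In *C* it ranged from 1.23 to 2.64 CPM with a median of 1.69 CPM. In *T* it ranged from 0.598 to 1.22 CPM around a median of 0.959 CPM. The highest *T* animal, replicate 17 at 1.218 CPM (36 counts), lay just under the lowest control, replicate 6 at 1.226 CPM (30 counts). The separation of *T* from the controls hangs on this small gap.

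In *WSD*, *GPT* ran from 0.197 to 1.08 CPM with a median of 0.566 CPM. In *T* + *WSD* it ran from 0 to 0.817 CPM with a median of 0.525 CPM. All 6 animals of each treated group lay below every control, in *T* only by the small gap given above. The treated groups overlapped with one another. Over all tested genes, the share with all 6 animals below every control was 0.125% for *T*, 0.171% for *WSD* and 4.12% for *T* + *WSD*. The 3 comparisons share the same controls, and the gene was chosen with them known, so nothing is read from these shares.

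The mean of *GPT* was 1.81 ± 0.555 CPM for controls (SD, n = 6 in every group), compared with 0.972 ± 0.220 CPM for *T*, 0.611 ± 0.361 CPM for *WSD* and 0.499 ± 0.287 CPM for *T* + *WSD*. The fitted log2 fold changes against *C* were -0.88 (standard error, SE 0.36) in *T*, -1.56 (SE 0.38) in *WSD* and -1.71 (SE 0.39) in *T* + *WSD*. In the 16 other libraries they were -0.64, -1.40 and -1.39. Without *C* replicate 1, the highest library, they were -0.74, -1.42 and -1.55.

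Counting error was large for this gene, because counts per animal ran from 11 to 54 in *C* and from 0 to 19 in *T* + *WSD*. The library at 0 was *T* + *WSD* replicate 8, the smallest of the series. A count of 0 there allows a level of up to 0.848 CPM by a limit of 3 counts and 1.04 CPM by the exact 95% Poisson interval, both of which are above the highest other animal of its group and below the lowest control. For the lowest control, replicate 6, the exact 95% Poisson interval of 30 counts was 0.827 to 1.75 CPM. For the highest *T* animal, replicate 17 with 36 counts, it was 0.853 to 1.69 CPM. The order of these animals is therefore within counting error. These limits cover counting error only.

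**Figure D1:**
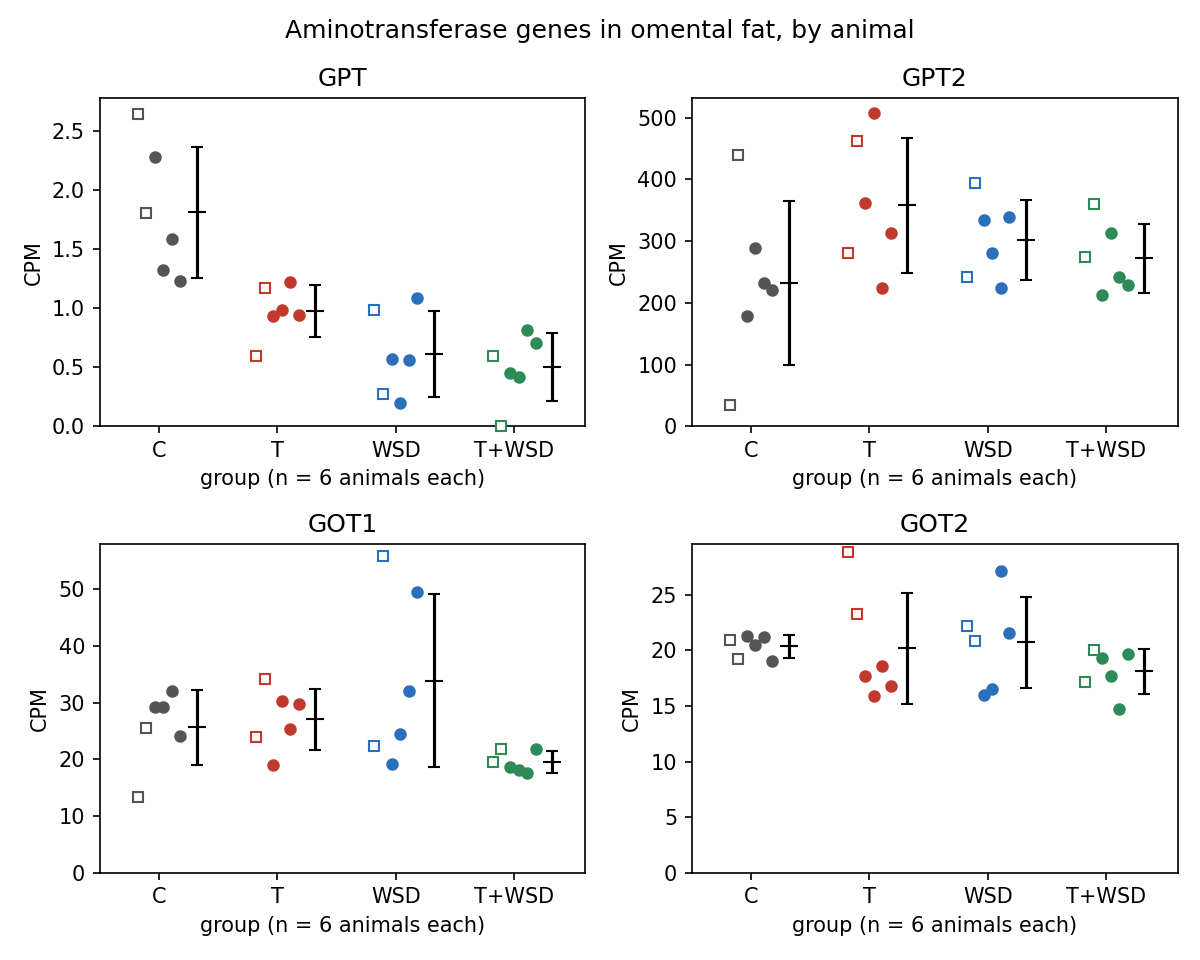
Level of each gene in CPM (linear axis from 0) in every animal of the 4 groups, with the group mean and SD as the black bar (n = 6); open squares mark the 8 libraries rich in ENSMMUG00000038258. All *GPT* points of the treated groups lie under the lowest control at 1.23 CPM, the highest *T* point, at 1.22 CPM, only just. *GPT2*, *GOT1* and *GOT2* overlap with the controls in every treated group.

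The comparisons of *GPT* between treated groups use the same animals as those that entered its choice, so they too are descriptions. *GPT* was lower in *T* + *WSD* than in *T* by 0.83 on the log2 scale in the fitted means (log2 fold change -0.83, SE 0.38), and 4 of 6 *T* + *WSD* animals lay below every *T* animal. Between *T* + *WSD* and *WSD* the log2 fold change was -0.15 (SE 0.40). The interaction of testosterone and diet was 0.73 (SE 0.54).

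Markers of the mesothelium, the cell layer that covers the omentum, were lower in *T* + *WSD* than in *C*, as *GPT* was. The 2 parted between *T* + *WSD* and *WSD*, where the median log2 fold change of the markers was -1.52 and that of *GPT* -0.15 (SE 0.40). There 0 of the markers passed with edgeR, 8 had an unadjusted p under 0.05 and 5 fell with DESeq2. The list had 11 measured genes, and 9 of them fell in *T* + *WSD* against *C*, 0 in *T* and 0 in *WSD* (edgeR; 0 and 6 genes at an unadjusted p under 0.05; 0 and 0 with DESeq2). Their summed level ran from 3172 to 40210 CPM for controls, 3069 to 18158 for *T*, 788 to 6474 for *WSD* and 259 to 3276 for *T* + *WSD*. No defining marker was at 0 in any group, the median of *MSLN* (mesothelin) being 279 CPM in *C* and 61.6 CPM in *T* + *WSD*. Of all genes 9.94% fell in *T* + *WSD* against *C*.

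With the mean z score of these markers as a covariate, the log2 fold change of *GPT* was -0.71 (SE 0.35) in *T*, -1.23 (SE 0.40) in *WSD* and -0.88 (SE 0.54) in *T* + *WSD* against *C*. *T* + *WSD* against *T* came to -0.17. Since the marker score differed between the groups itself, with a mean of 0.61 in *C* and -0.99 in *T* + *WSD*, its part and that of the treatment cannot be told apart.

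Alanine aminotransferase is also a liver enzyme, so hepatocyte markers were read in the same libraries. Of 12 listed genes 5 were tested, and 3 of these rose in *T* + *WSD* against *C*, where *GPT* was lowest. Of all genes 7.18% rose in that comparison. The list summed to 36.7 to 525 CPM for controls, 161 to 1228 for *T*, 140 to 545 for *WSD* and 127 to 378 for *T* + *WSD*. Albumin (*ALB*) lay at or under 0.492 CPM in every control and reached 34.3 CPM in 1 *T* + *WSD* animal, and *APOA2* was at 0 in all controls. The highest hepatocyte score, 1.59, was that of *T* + *WSD* replicate 11, which also had the highest *GPT* of its group. Within groups *GPT* and this score had r = 0.0744 (adjusted permutation p = 0.823 over 12 pairs). Inside single groups r ran from -0.862 in *WSD* to 0.490 in *T* + *WSD*. How much such RNA adds to the levels of the members was not tested.

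*GPT2*, the mitochondrial alanine aminotransferase, had 134626 counts in all and so a much smaller counting error. In *C* it ranged from 35.1 to 440 CPM with a median of 226 CPM. In *T* it ranged from 223 to 508 CPM with a median of 337 CPM. The lowest and the highest control were *C* replicates 1 and 2, and the other 4 controls lay between 179 and 289 CPM.

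*GPT2* ran from 223 to 393 CPM in *WSD*, with a median of 307 CPM. In *T* + *WSD* it ran from 212 to 360 CPM, with a median of 258 CPM. All 4 groups overlapped. The mean was 233 ± 133 CPM for controls (SD, n = 6 in every group), 358 ± 109 for *T*, 302 ± 65.0 for *WSD* and 272 ± 56.0 for *T* + *WSD*.

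None of the differences in *GPT2* passed the test. The log2 fold change against *C* was 0.62 in *T* (SE 0.34, edgeR adjusted p = 0.602), 0.38 in *WSD* (SE 0.34, adjusted p = 0.563) and 0.23 in *T* + *WSD* (SE 0.34, adjusted p = 0.694). Without *C* replicate 1 the 3 values were 0.40, 0.15 and 0.02. *T* + *WSD* stood at -0.15 against *WSD* (adjusted p = 0.841) and at -0.40 against *T* (adjusted p = 0.480), and the interaction was -0.78 (SE 0.48, adjusted p = 0.505).

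The counts of *GPT2* relative to those of *GPT* were higher in the treated groups, which is a description because it carries the known difference of *GPT*. The log2 ratio of the counts was 6.71 ± 1.57 for controls (SD, n = 6 in every group), 8.46 ± 0.52 for *T*, 9.06 ± 1.02 for *WSD* and 9.13 ± 1.16 for *T* + *WSD*. *C* replicate 1 stood at 3.72 and lowers the control mean, while the other controls ran from 6.28 to 7.86. The differences were not computed without it. All 6 *T* + *WSD* animals, and 5 of 6 in *T* and in *WSD*, lay above every control. In the 16 other libraries the differences from *C* were 1.184 for *T*, 1.91 for *WSD* and 1.52 for *T* + *WSD*, compared with 1.75, 2.35 and 2.42 over all libraries.

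*GOT1*, the cytosolic aspartate aminotransferase, differed in its spread between the groups on the diet, which is a description, as spread was not tested. In *WSD* it ranged from 19.1 to 55.8 CPM with a median of 28.2 CPM. In *T* + *WSD* it ranged from 17.5 to 21.8 CPM with a median of 19.01 CPM. The coefficient of variation was 45.1% in *WSD* and 9.52% in *T* + *WSD*, and the high *WSD* animals were replicate 20 at 55.8 CPM and replicate 24 at 49.4 CPM.

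The control range of *GOT1* was 13.4 to 32.1 CPM, with a median of 27.4 CPM and its lowest value in *C* replicate 1. The *T* group ran from 19.03 to 34.1 CPM around a median of 27.6 CPM. Every *T* + *WSD* animal lay inside the range of the controls, and below the other 5 controls, of which the lowest stood at 24.1 CPM.

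Between *T* + *WSD* and *WSD* the log2 fold change of *GOT1* was -0.80 (SE 0.23, 95% interval -1.28 to -0.31). With an adjusted p of 0.0713 (edgeR) it did not pass the threshold of 0.05, and 3 of 6 *T* + *WSD* animals lay below every *WSD* animal. DESeq2 gave -0.78 with an adjusted p of 0.0340, which passed. The adjusted p was between 0.0267 and 0.184 when each animal was left out in turn and passed without *WSD* replicate 19 or 21. In the 16 other libraries the value was -0.70 (adjusted p = 0.267).

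Against *C*, the log2 fold change of *GOT1* was 0.08 in *T* (SE 0.23, edgeR adjusted p = 0.956), 0.40 in *WSD* (SE 0.23, adjusted p = 0.353) and -0.40 in *T* + *WSD* (SE 0.23, adjusted p = 0.246). Without *C* replicate 1 these were -0.05, 0.26 and -0.51, so that the direction in *T* turned. Against *T*, *T* + *WSD* stood at -0.48 (SE 0.23, adjusted p = 0.198), with 3 of 6 animals below every *T* animal. The interaction was -0.87 (SE 0.33, adjusted p = 0.231, unadjusted p = 0.0138).

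*GOT2*, the mitochondrial aspartate aminotransferase, varied least between the groups. In *C* it ranged from 19.05 to 21.3 CPM with a median of 20.7 CPM. *T* ran from 15.9 to 28.9 CPM with a median of 18.2 CPM, and *WSD* from 15.96 to 27.1 CPM with a median of 21.2 CPM. The controls sat inside the range of both groups.

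In *T* + *WSD*, *GOT2* ran from 14.7 to 20.1 CPM with a median of 18.5 CPM, and 3 of 6 animals lay below every control. The coefficient of variation was 4.94% in *C*, the lowest of any member in any group, and 24.6% in *T*. The log2 fold change against *C* was -0.02 for *T*, 0.02 for *WSD* and -0.17 for *T* + *WSD*, each with an SE of 0.14 (edgeR adjusted p = 0.989, 0.954 and 0.410). It was -0.20 against *WSD* (adjusted p = 0.446) and -0.16 against *T* (adjusted p = 0.504), and the interaction was -0.18 (adjusted p = 0.769). The 95% interval for *T* + *WSD* against *C* was -0.46 to 0.11.

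**Figure D2:**
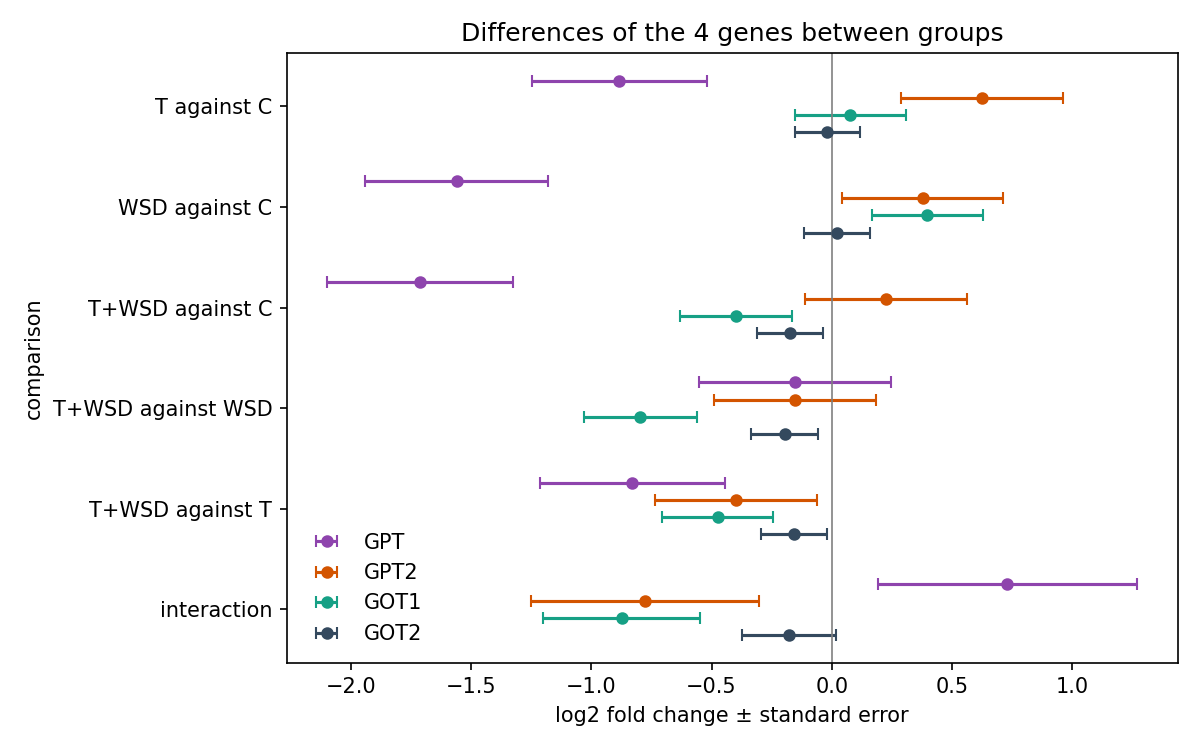
Fitted log2 fold change of the 4 genes with its standard error in 5 group comparisons and the interaction, edgeR fit over 24 animals. *GPT* stands at -0.88, -1.56 and -1.71 against *C*, *GOT1* at -0.80 in *T* + *WSD* against *WSD*, and *GOT2* stays between -0.20 and 0.02.

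In counts of members, 0 of the 3 genes with a test passed in *T*, *WSD* or *T* + *WSD* against *C* (edgeR), 0 had an unadjusted p under 0.05, and 0 passed with DESeq2. Over all tested genes the share that passed was 0% for *T*, 0% for *WSD* and 17.1% for *T* + *WSD* against *C*, and 8.63%, 18.5% and 32.1% had an unadjusted p under 0.05. For *T* + *WSD* against *WSD*, 0 of these 3 passed (edgeR), compared with 1.67% of all genes, while 1 had an unadjusted p under 0.05 (as did 3039 of 15207 genes) and 1 passed with DESeq2, *GOT1* in both cases. For *T* + *WSD* against *T*, 0 of 3 passed (edgeR) beside 6.50% of all genes, with 0 at an unadjusted p under 0.05 (beside 25.9% of all genes) and 0 with DESeq2. In the interaction, read at an adjusted p under 0.1, 0 of 3 passed (edgeR) beside 0.809% of all genes, with 1 at an unadjusted p under 0.05 (*GOT1*, beside 13.5% of all genes) and 0 with DESeq2. The shares of all genes that passed with DESeq2 were 0.0455% for *T*, 2.59% for *WSD* and 18.5% for *T* + *WSD* against *C*. They were 4.92% for *T* + *WSD* against *WSD*, 10.1% against *T* and 2.77% in the interaction.

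The ratio of *GOT1* to *GOT2* counts within a library does not depend on library size. In *WSD* its log2 value had a median of 0.41 and ranged from 0.01 to 1.42, and in *T* + *WSD* it had a median of 0.13 and ranged from -0.06 to 0.25. The controls spanned -0.64 to 0.60 with a median of 0.44, and the *T* animals -0.27 to 0.94 with a median of 0.50. The *T* + *WSD* animals were the most alike, with an SD of 0.11 against 0.46 for controls, 0.45 for *T* and 0.57 for *WSD*.

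The mean log2 ratio was 0.50 lower in *T* + *WSD* than in *WSD* (difference -0.50; two-sided exact permutation test, p = 0.0498, adjusted p = 0.249 over 5 comparisons), and 1 of 6 animals lay below every *WSD* animal. *T* + *WSD* differed from *C* by -0.17 (exact permutation p = 0.446, adjusted p = 0.557). Without *C* replicate 1, the low control at -0.64, this difference was -0.35 with an adjusted exact permutation p of 0.0216. The smallest unadjusted p that 6 animals against 6 allow is 0.00216, and it is larger with a control left out. Without *C* replicate 1 the lowest control stood at 0.34 and the highest *T* + *WSD* animal at 0.25. The unadjusted p of that comparison was thus the smallest that its number of animals allows.

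**Figure D3:**
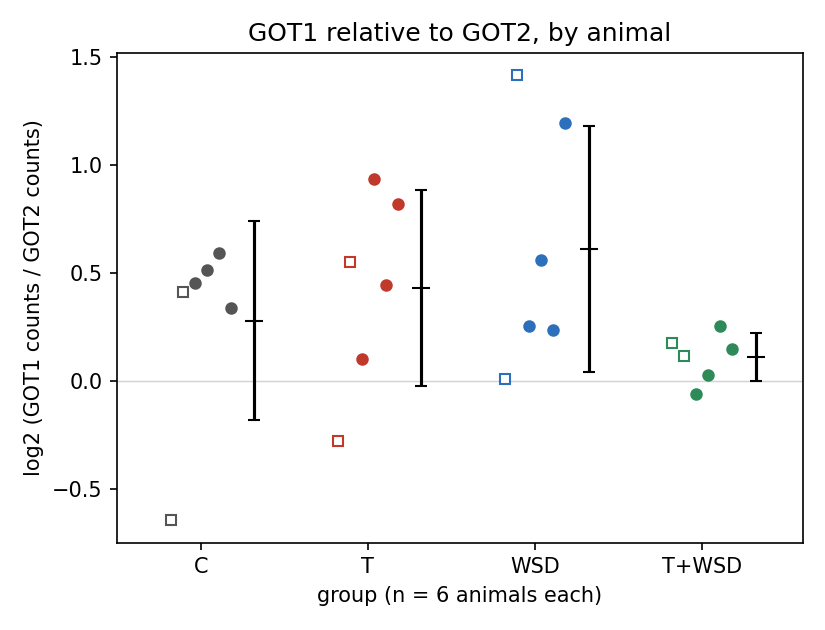
Log2 ratio of *GOT1* to *GOT2* counts in each animal by group, with mean and SD (n = 6) as the black bar; open squares mark the 8 libraries rich in ENSMMUG00000038258. *C* replicate 1 lies at -0.64, apart from the other controls, and *T* + *WSD* has the smallest spread (SD 0.11).

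Within groups, *GPT2* followed the adipocyte markers. After the group means were subtracted, log2 CPM of *GPT2* and the mean z score of the 10 measured adipocyte genes had Pearson's r = 0.911 (permutation p = 5.0e-05, adjusted p = 6.0e-04 over 12 pairs) and Spearman's rho = 0.768 (adjusted permutation p = 0.00288) over 24 animals. *C* replicates 1 and 2 were farthest from the median of *GPT2*. Without these 2 animals r was 0.722.

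Inside the groups r of *GPT2* with the adipocyte markers was 0.986 for controls, 0.6253 for *T*, 0.889 for *WSD* and 0.613 for *T* + *WSD*. In the 16 other libraries r was 0.593 (adjusted permutation p = 0.156), which did not pass. The adipocyte list summed to 3461 to 23303 CPM for controls, 12982 to 30846 for *T*, 14845 to 35549 for *WSD* and 20908 to 32054 for *T* + *WSD*, and 2 of its 10 genes rose in *T* + *WSD* against *C*. With this score as a covariate, *GPT2* was -0.80 in *T* + *WSD* against *T* (log2 fold change, edgeR adjusted p = 0.0163), and its value in *T* + *WSD* against *C* turned from 0.23 to -0.45 (adjusted p = 0.221). Under that covariate 5.13% of all genes passed in *T* + *WSD* against *T* and 0% against *C*.

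*GPT2* ran against the mesothelial markers within groups (r = -0.433, adjusted permutation p = 0.0136; rho = -0.590, adjusted p = 0.0138). In the 16 other libraries r was -0.205 (adjusted permutation p = 0.698). *GPT* ran with these markers (r = 0.616, adjusted permutation p = 0.108; rho = 0.587, adjusted p = 0.0402), but r was 0.335 without *T* + *WSD* replicate 8 and *WSD* replicate 22, and 0.263 in the 16 other libraries. The *GPT* relation therefore rests on those animals. The other 9 pairs of a member and a marker list had adjusted permutation p values of 0.102 or more for r and rho alike.

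**Figure D4:**
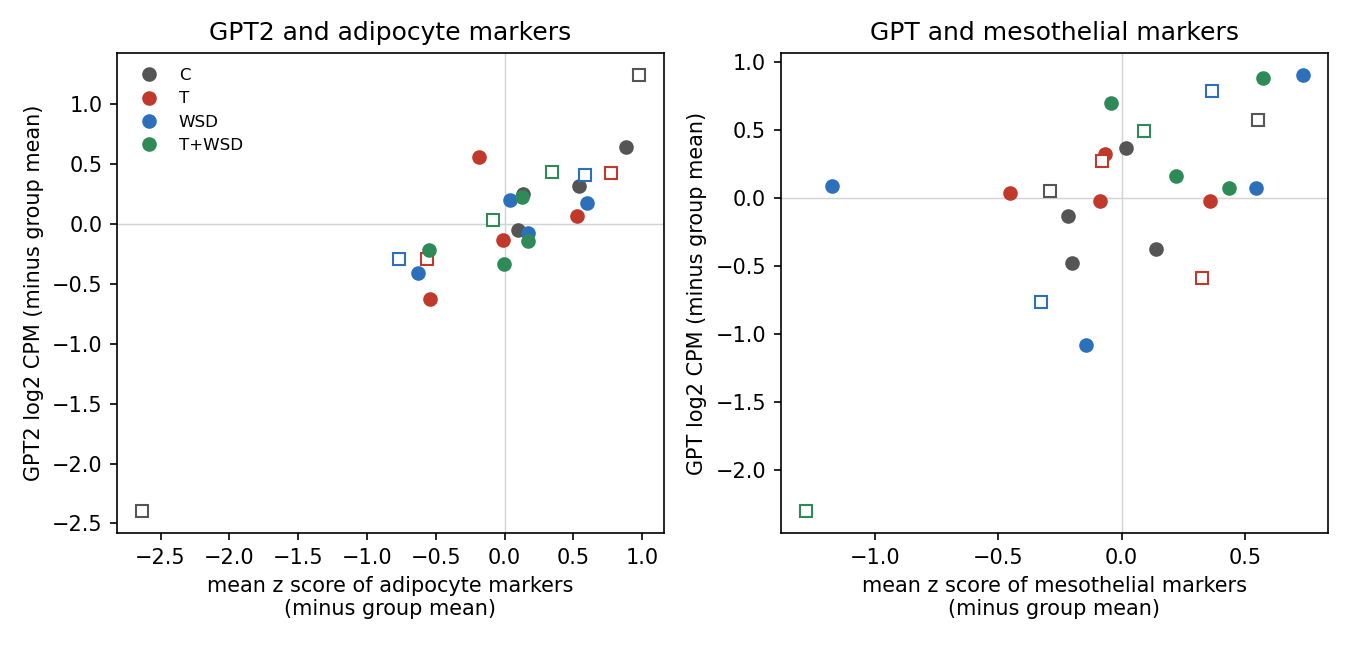
Log2 CPM of *GPT2* against the mean z score of adipocyte markers (left) and of *GPT* against that of mesothelial markers (right), each minus its group mean, for 24 animals; open squares mark the 8 libraries rich in ENSMMUG00000038258. *C* replicate 1 is the point at the lower left of the *GPT2* panel, and *T* + *WSD* replicate 8, with 0 *GPT* counts, that of the *GPT* panel.

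Among the 6 pairs of members, *GPT2* and *GOT1* had the strongest relation within groups (r = 0.555, adjusted permutation p = 0.0789; rho = 0.558, adjusted p = 0.0467). It rested on *C* replicates 1 and 2, without which r was 0.364, and r was 0.0547 in the 16 other libraries. *GPT* and *GPT2* gave r = -0.304 (adjusted permutation p = 0.0789) and rho = -0.427 (adjusted p = 0.0904). *GOT1* and *GOT2*, the cytosolic and mitochondrial forms of 1 enzyme, gave r = 0.232 (adjusted permutation p = 0.521).

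The genes whose log2 CPM was most like that of each member over all 24 animals, group differences included, differed from member to member. For *GPT* these were *NSUN7* (r = 0.890), *S1PR5* (r = 0.888) and *CGN* (r = 0.882), the last encoding cingulin of tight junctions. For *GPT2* they were *HK1* (hexokinase, r = 0.912), *PJA1* (r = 0.897) and *LIPE* (hormone-sensitive lipase, r = 0.876), and *LIPE* is also on the adipocyte list. For *GOT1* they were *MRPL4* (r = 0.939), *UQCRC2* (r = 0.908) and *HDHD5* (r = 0.906), the first a mitochondrial ribosomal protein and the second a subunit of respiratory complex III. For *GOT2* they were *CALR* (r = 0.865), *PPIB* (r = 0.845) and *DRAP1* (r = 0.804), of which *CALR* and *PPIB* encode proteins that fold others in the endoplasmic reticulum. These are the highest of 12605 tested genes with a symbol, and the 99th percentile of r over all tested genes was 0.752, 0.731, 0.776 and 0.627 for the 4 members in turn. As the highest values they lie above that percentile by selection. For *GPT*, r also carries the group differences known at its choice.

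The genes around the aminotransferases were read as 8 lists of 92 genes in all, of which 76 were tested. Because the lists were written with earlier results of these data known, nothing is read from their shares beside those of all genes. In *T* against *C*, 0 of 76 passed (edgeR; 10 at an unadjusted p under 0.05; 0 with DESeq2). In *WSD* against *C*, 0 passed (edgeR; 21 at an unadjusted p under 0.05; 1 with DESeq2). In *T* + *WSD* against *C*, 6 rose and 12 fell, which is 23.7% of the 76 beside 17.1% of all genes (7.18% rose and 9.94% fell), and 0 passed in the 16 other libraries (edgeR; 20 at an unadjusted p under 0.05), where 0.544% of all genes did. Without *C* replicate 1 the count was 10. Which of the genes named below passed without that library is not given, so single calls against *C* may rest on it.

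In *T* + *WSD* against *WSD*, 0 of the 76 rose and 3 fell (3.95%, beside 0.730% of all genes that rose and 0.940% that fell). The count changed with the fit and with single libraries: 0 passed with only the groups compared (edgeR; 23 at an unadjusted p under 0.05), in the 16 other libraries (18), or without *WSD* replicate 20 or 24 or *T* + *WSD* replicate 7, 8, 9 or 10, while 9 passed with DESeq2 and 10 without *WSD* replicate 21. In *T* + *WSD* against *T*, 2 rose and 4 fell (7.89%, beside 3.30% and 3.20%). In all 11 passed with DESeq2, 18 with only the groups compared and 3 in the 16 other libraries, and 2 passed without *T* + *WSD* replicate 8 and 3 without replicate 9 or 10. In the interaction 0 passed (edgeR; 18 at an unadjusted p under 0.05; 3 with DESeq2).

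The other genes of the malate-aspartate shuttle include the malate dehydrogenases *MDH1* (cytosolic) and *MDH2* (mitochondrial) and the oxoglutarate carrier *SLC25A11*, the 3 most abundant of 5. Their mean levels were highest in *WSD*, where *MDH1* stood at 332 ± 113 CPM against 223 ± 59.3 for controls (SD, n = 6 in every group), 217 ± 50.3 for *T* and 214 ± 17.3 for *T* + *WSD*. *MDH2* stood at 331 ± 128 CPM in *WSD* and 215 ± 14.9 CPM in *T* + *WSD*. *SLC25A11* stood at 45.4 ± 12.6 CPM and 31.9 ± 1.92 CPM. As for *GOT1*, the animals of *T* + *WSD* were close together and those of *WSD* wide apart. This was not particular to the shuttle: *PDHB* and *MPC1*, described below, also had a smaller SD in *T* + *WSD* than in *WSD*, while *ALPL* did not. Spread was not tested, nor compared over all genes.

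None of these 3 passed edgeR's test in any comparison, while *SLC25A11* passed with DESeq2 in *T* + *WSD* against *WSD* (log2 fold change -0.49, DESeq2 adjusted p = 0.0415). In *T* + *WSD* against *WSD* the log2 fold change was -0.63 for *MDH1* (edgeR adjusted p = 0.0981), -0.62 for *MDH2* (adjusted p = 0.176) and -0.51 for *SLC25A11* (adjusted p = 0.0716), and 5 of 6 *T* + *WSD* animals lay below every *WSD* animal for *SLC25A11*. Over the 5 shuttle genes the median log2 fold change was 0.44 in *WSD* against *C*, -0.51 in *T* + *WSD* against *WSD* and -0.60 in the interaction, and the medians of all genes were -0.02, -0.03 and -0.02.

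*SLC25A13*, an aspartate-glutamate carrier of the inner mitochondrial membrane, did pass, and is named after its values were seen. It ran from 14.1 to 20.4 CPM in *C* and from 20.5 to 27.4 CPM in *T* + *WSD*, without overlap. The log2 fold change was 0.48 against *C* (SE 0.10, edgeR adjusted p = 0.00577) and 0.57 against *T* (SE 0.10, adjusted p = 0.00566). Among all genes, 3.49% had all 6 *T* + *WSD* animals above every control.

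The enzymes and carriers of pyruvate, the product of alanine transamination, had lower values in *T* + *WSD* than in *WSD*, with a median log2 fold change of -0.73 over 16 genes and 2 that fell. *MPC1*, a subunit of the mitochondrial pyruvate carrier, ran from 21.7 to 113 CPM in *WSD* and from 12.2 to 20.8 CPM in *T* + *WSD* (log2 fold change -1.55, edgeR adjusted p = 0.0370). *PDHB*, a subunit of pyruvate dehydrogenase, ran from 98.8 to 218 CPM and from 74.2 to 92.3 CPM (-0.78, adjusted p = 0.0261). In both genes all 6 *T* + *WSD* animals lay below every *WSD* animal, as did 1.37% of all genes.

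*PCK2*, the mitochondrial phosphoenolpyruvate carboxykinase, fell in *T* + *WSD* by 1.35 on the log2 scale against *C* (edgeR adjusted p = 0.0204) and by 1.47 against *T* (adjusted p = 0.0293). Its mean was 17.2 ± 6.35 CPM in *C* and 6.55 ± 2.82 CPM in *T* + *WSD*, and 5 of 6 animals lay below every control.

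Of 9 tested enzymes of glutamate and glutamine, *GLUL* (glutamine synthetase) fell in *T* + *WSD* against *WSD* by 1.34 on the log2 scale (edgeR adjusted p = 0.0367). It ran from 211 to 855 CPM in *WSD* and from 111 to 218 CPM in *T* + *WSD*, and 5 of 6 animals lay below every *WSD* animal. *ALDH18A1* (proline synthesis from glutamate), named after its values were seen, fell in *T* + *WSD* against *C* by 0.46 on the log2 scale (edgeR adjusted p = 0.0114).

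Among 9 tested genes that use or make aspartate, *ASNS*, which forms asparagine from aspartate, rose in *T* + *WSD* against *C* (log2 fold change 0.93, SE 0.25, edgeR adjusted p = 0.0146) and against *T* (0.83, adjusted p = 0.0444). It ran from 8.76 to 20.8 CPM in *C* and from 21.8 to 36.4 CPM in *T* + *WSD*, with no overlap. *ASS1* and *ADSS*, which join aspartate to citrulline and to inosine monophosphate, fell by 1.22 (adjusted p = 0.0191) and 0.69 (adjusted p = 0.00674), and all 6 animals lay below every control in each.

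Of the other aminotransferases, 9 of 13 were tested. *OAT* (ornithine aminotransferase) and *BCAT2* (mitochondrial branched-chain aminotransferase) fell in *T* + *WSD* against *C* by 0.69 (edgeR adjusted p = 0.00553) and 0.61 (adjusted p = 0.0169). *OAT* ran from 100.5 to 202 CPM in *C* and from 73.8 to 91.1 CPM in *T* + *WSD*, without overlap, and *BCAT2* also fell against *T* by 0.76 (adjusted p = 0.0151). *KYAT1*, a kynurenine aminotransferase named after its values were seen, rose by 0.46 against *C* (log2 fold change 0.46, adjusted p = 0.0166). *TAT*, *AGXT*, *AGXT2* and *GOT1L1* had too few counts to be tested.

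Vitamin B6 enzymes were represented by 2 of 4 genes, of which *ALPL*, the phosphatase that acts on pyridoxal phosphate outside cells, rose in *T* + *WSD* against *C* (log2 fold change 1.51, SE 0.29, edgeR adjusted p = 0.00322). It ran from 2.32 to 7.40 CPM in *C* and from 8.08 to 15.5 CPM in *T* + *WSD*.

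Among 15 tested transporters of alanine, aspartate and glutamate, 2 rose and 3 fell in *T* + *WSD* against *C*. *SLC36A1*, an amino acid carrier of lysosomes, rose by 0.87 (log2 fold change 0.87, edgeR adjusted p = 0.0412), and *SLC38A1*, named after its values were seen, by 0.39 (adjusted p = 0.0355). The alanine and glutamine carrier *SLC38A2* fell by 0.64 (adjusted p = 0.0359), the glutamate and aspartate carrier *SLC1A1* by 1.63 (adjusted p = 0.0263) and the mitochondrial glutamate carrier *SLC25A22* by 0.60 (adjusted p = 0.0369).

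Genes of the amino acid response, the program that induces such enzymes when amino acids are short, had 11 of 16 tested. *ATF4*, *PSPH*, *SLC7A5* and *GDF15* were not found, and *FGF21* had too few counts. *ASNS*, which rose as given above, and *PSAT1* were counted in other lists. *PSAT1*, named after its values were seen, stood at 0.63 in *T* + *WSD* against *C* (edgeR adjusted p = 0.185). Nothing is read about the program as a whole. In *T* + *WSD* against *C* 0 rose and 2 fell, *VLDLR* by 0.92 (edgeR adjusted p = 0.0115) and *NUPR1* by 0.66 (adjusted p = 0.0320), encoding a lipoprotein receptor and a stress-induced nuclear protein. *VLDLR* also fell against *T* by 0.91 (adjusted p = 0.0261).

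**Figure D5:**
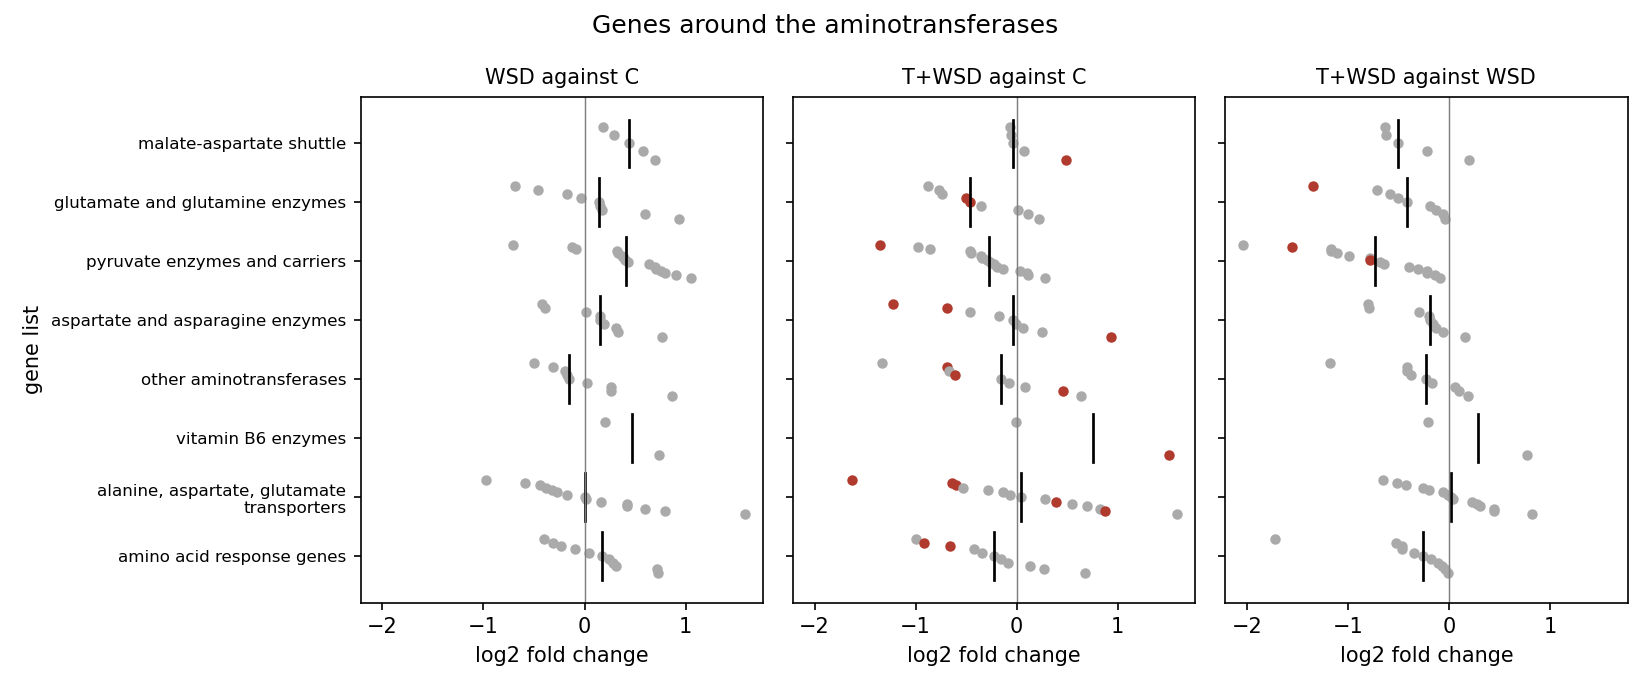
Log2 fold change of each tested gene (point) in the 8 lists of genes around the aminotransferases, in 3 comparisons; dark red points passed an adjusted p under 0.05 (edgeR) and black lines are list medians. The medians of the shuttle and pyruvate lists lie at 0.44 and 0.41 in *WSD* against *C* and at -0.51 and -0.73 in *T* + *WSD* against *WSD*.

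Other cell types moved with the same groups as these pathway genes. In *T* + *WSD* against *C*, 3 of 7 tested skeletal muscle markers, 6 of 8 endothelial markers and 3 of 8 smooth muscle and pericyte markers rose (edgeR), beside 7.18% of all genes. The muscle list summed to 75.0 to 183 CPM in *C* and 342 to 752 CPM in *T* + *WSD*, and the endothelial list to 1018 to 1687 CPM and 1900 to 2971 CPM. With the mesothelial or the adipocyte score as a covariate, 0 of the 76 pathway genes passed in *T* + *WSD* against *C* (edgeR; 3 and 27 at an unadjusted p under 0.05), and 0% of all genes did. The part of the cell types in the pathway values cannot be told apart from that of the treatments.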

How the data were processed

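Libraries of omental WAT RNA, after removal of ribosomal RNA, were sequenced in single reads of 100 bases. The authors trimmed reads with Trimmomatic 0.36, checked them with FastQC 0.11.5, aligned them to rheMac8 with STAR 2.5.2b and used DESeq2 1.18.1. They deposited raw counts per gene, not normalized. The counting tool and its strand setting are not given in the sources used here, so reads of overlapping or antisense genes cannot be told apart. Bisulfite data were not analysed here, and no gene lengths, positions or sequences were used.

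Counts were tested with edgeR 4.0.16 in R 4.3.3: TMM, filterByExpr (minimum count 10, minimum total 15), and glmQLFit and glmQLFTest (robust, legacy) in 1 fit of 4 groups taken from the labels, two-sided, with Benjamini-Hochberg adjustment over 15207 genes. A gene "rose" or "fell" at an adjusted p under 0.05 (0.1 for the interaction, which is the testosterone effect on WSD minus that on chow). CPM use TMM library sizes, and log2 CPM a prior count of 2. Count ratios added 0.5 to each count and were compared by exact permutation (SciPy 1.17.1). Correlations used log2 CPM minus group means, with 100000 permutations within groups. The fit was tested on simulated data. Total counts of 6899185 to 28270776 set the precision, which is poor for *GPT*. Labels name separate animals, and no libraries were identical.

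Symbols came from a gene name table, else from the paper's supplementary tables. The members, gene lists and marker lists, written from general knowledge, were chosen with earlier results of these data known. Named pathway genes passed the test in some comparison with a fold change over 1.5 (at most 6 per list), plus the 3 most abundant shuttle genes; others are marked in the text as named after their values were seen. One gene of the lists is counted but not reported here by name. For likeness, the 3 genes of highest r per member were named, and of the markers the defining ones of hepatocytes, adipocytes and mesothelium. Of the marker lists not described in the report, in *T* + *WSD* against *C* 1 of 8 tested fibroblast genes rose and 1 of 4 erythroid genes fell, while 0 of 9 macrophage, 0 of 6 T and NK cell and 0 of 4 B and plasma cell genes passed (edgeR; 0 at an unadjusted p under 0.05 in these last 3, and 0 with DESeq2). Alternatives were DESeq2 1.42, RLE normalization, other filters on low counts, fits of only the groups compared, marker scores as covariates, other pseudocounts and priors, and each animal left out. In addition, the 8 libraries with over 5% of their counts in ENSMMUG00000038258 were marked by a covariate or left out. The labels name no batch and give no reason for that difference.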

Additional observations from a re-analysis of the deposited data

Results flagged for a closer look

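The log2 ratio of *GOT1* to *GOT2* counts in *C* replicate 1 was -0.643251, while the next control stood at 0.34. The gap between the lowest animal and its neighbour was 0.793 of the range of the group, above Dixon's critical value for 6 animals. In all, 24 groups of 6 animals were examined in this way and 1 was found, where chance gives about 1 in 20. The same library held the lowest *GPT2* (35.1 CPM) and *GOT1* (13.4 CPM) and the lowest adipocyte marker score (-3.36); their part in the ratio was not tested.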

How the results depend on the processing

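Over 58 results and 320 alternative values, 277 counted as the same. Tested results had to keep their direction and their side of the threshold, and counts of genes to stay within 1.5 times. Values of *GPT*, which had no test, had to keep their sign and move by less than its SD within groups (0.757 on the log2 scale). The *GPT2* to *GPT* ratio had only to move by less than its SD in the groups compared. The fits of only the 16 other libraries and those with marker scores moved the rest most. The 16 libraries also hold fewer animals per group and leave out the smallest libraries, so these parts cannot be told apart. With a covariate for the 8 libraries instead, 18 pathway genes passed in *T* + *WSD* against *C*, 3 against *WSD* and 6 against *T*, as in the main fit. With only the 16 other libraries, the log2 fold change of *GOT1* in *T* against *C* was -0.13, of *GOT2* in *WSD* against *C* -0.0088, of *GPT* in *T* + *WSD* against *WSD* 0.0073, and of *GOT2* in *T* + *WSD* against *T* 0.062 and in the interaction 0.070, all turned in sign. In those libraries the within-group correlations turned for *GPT* with *GOT1* (0.504) and *GOT2* (0.295), for *GPT* and *GPT2* with hepatocyte markers (-0.0494 and -0.0287) and for *GOT1* with adipocyte (-0.436) and mesothelial markers (0.631), and those of *GPT2* with adipocyte (0.593) and mesothelial markers (-0.205) no longer passed. With the mesothelial score as a covariate, *GOT2* stood at 0.011 in *T* and 0.050 in *T* + *WSD* against *C* and 0.039 in *T* + *WSD* against *T*, *GPT2* at -0.46 in *T* + *WSD* against *C*, and *GPT* at 0.35 in *T* + *WSD* against *WSD*, all turned, and *GPT* at -0.88 in *T* + *WSD* against *C*. With the adipocyte score, *GOT1* (-0.075) and *GOT2* (0.034) in *T* and *GPT2* in *WSD* (-0.10) and *T* + *WSD* (-0.45) turned against *C*, while *GOT1* in *T* + *WSD* against *WSD* (-0.85, adjusted p = 0.0274) and *GPT2* in *T* + *WSD* against *T* (-0.80) passed. *GOT1* also passed with DESeq2 in *T* + *WSD* against *WSD* (-0.78) and with only the groups compared in *T* + *WSD* against *T* (-0.45, adjusted p = 0.0379). With the adipocyte score, 4.31% of all genes passed in *T* + *WSD* against *WSD* and 5.13% against *T*. The shares were 4.92% against *WSD* with DESeq2 and 13.7% against *T* with only the groups compared. With medians, the *GOT1* to *GOT2* ratio in *WSD* against *C* was -0.024. The causes were not tested.

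The number of pathway genes that passed was 1 in *WSD* against *C*, 9 in *T* + *WSD* against *WSD*, 11 in *T* + *WSD* against *T* and 3 in the interaction with DESeq2. With only the groups compared it was 0 in *T* + *WSD* against *WSD* and 18 against *T*. In the 16 other libraries it was 0 in *T* + *WSD* against *C*, 0 against *WSD* and 3 against *T*. It was 0 in these 3 comparisons and 1 in the interaction with the mesothelial score, and 0 against *C* and 12 against *WSD* with the adipocyte score. Over all genes DESeq2 called 389 in *WSD* against *C*, 809 in *T* + *WSD* against *WSD*, 1804 against *T* and 481 in the interaction, where edgeR called 0, 254, 988 and 123.

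With each animal left out in turn, *GOT1* in *T* against *C* ran from -0.052 (without *C* replicate 1) to 0.16, *GOT2* in *T* against *C* from -0.15 to 0.043 (turned without *T* replicate 15, 16, 17 or 18) and in *WSD* against *C* from -0.072 (without *WSD* replicate 23) to 0.089, *GPT* in *T* + *WSD* against *WSD* from -0.36 to 0.13 (turned without *WSD* replicate 24), and *GOT1* there from -0.92 to -0.60 (passed without *WSD* replicate 19 or 21). The *GOT1* to *GOT2* ratio ran from -0.034 (without *C* replicate 1) to 0.29 in *T* against *C*, from -0.35 (without *C* replicate 1) to -0.11 in *T* + *WSD* against *C* and from -0.62 (without *WSD* replicate 19, adjusted p = 0.0433) to -0.34 in *T* + *WSD* against *WSD*. The pathway count ran from 0 to 1 in *WSD* against *C* (1 without *WSD* replicate 19), from 10 (without *C* replicate 1) to 19 in *T* + *WSD* against *C*, from 0 to 10 against *WSD*, where every animal but *WSD* replicate 23 moved it by over 1.5 times, from 2 to 5 against *T* (lowest counts without *T* + *WSD* replicate 8, 9 or 10) and from 0 to 3 in the interaction (highest without *WSD* replicate 21). No paired analysis was possible because the groups share no replicate numbers. Depth limits *GPT*, with at most 54 counts in a library.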
